A study of Homo sapiens with 6 samples.

Results

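The genes described are 9 rows of the deposited read-count table, out of 29122, chosen by symbol: the ErbB receptors EGFR, ERBB2 and ERBB3, the ErbB ligands AREG, EREG, HBEGF, TGFA and NRG1, and the receptor MET. All 9 had a row and all 9 passed the filter on low counts. The cells were A549, an epithelial line from a human lung carcinoma, stably transduced by lentivirus with a short hairpin RNA. In the 3 control libraries the hairpin was against firefly luciferase, which human cells lack, and in the 3 BCLAF1-depleted libraries it was against BCLAF1, a nuclear protein with roles in transcription and RNA processing. The labels name no clone, no time after transduction and only 1 hairpin target per group, so the hairpin against BCLAF1 and the loss of BCLAF1 cannot be told apart. They do not say whether replicates were separate cultures, and the p-values then measure no more than how these libraries vary, possibly for technical reasons.

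ErbB receptors are cell-surface tyrosine kinases that pair when a ligand of the EGF type binds. EGFR binds amphiregulin (AREG), epiregulin (EREG), TGF-alpha (TGFA) and heparin-binding EGF (HBEGF), and ERBB3, whose kinase is nearly inactive, binds neuregulin (NRG1) and signals through its partner, most often ERBB2, which has no known ligand of its own. These ligands are made as membrane-bound precursors and are cut free by ADAM proteases. MET, the receptor of hepatocyte growth factor, is a separate tyrosine kinase that uses many of the same adaptors.

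Levels are given as CPM, counts brought to a fixed library total, with the libraries scaled to each other by TMM (trimmed mean of M-values), and a log2 fold change above 0, given with its SE, means more RNA after BCLAF1 depletion. Library totals ran from 33409158 to 43928927 counts, and 3 counts, the least taken as more than none, equal 0.0683 to 0.0898 CPM before TMM scaling, for counting error only. BCLAF1 was at 204 ± 6.13 CPM in the control and 42.6 ± 9.23 CPM in the BCLAF1-depleted libraries (SD, n = 3 each), a log2 fold change of -2.26 ± 0.16 (edgeR quasi-likelihood test, adjusted p = 2.31e-05). The first principal component placed the controls at -43.6 to -40.9, BCLAF1-depleted replicates 2 and 3 at 54.2 and 53.4, and replicate 1 apart from both, at 19.4. BCLAF1-depleted replicate 3 had 19.3% of its counts on the mitochondrial genome, against 10.5 to 11.4% in the other 5 libraries. Fold changes also ran with exon length, from a median of 0.35 in log2 over the 3155 shortest tested genes to -0.19 over the 3155 longest. The 8 epithelial markers summed to 32617 to 34246 CPM in controls and 34513 to 41995 CPM after depletion, nearly all of it KRT8, KRT18 and KRT7. Of these 8, KRT19 was higher and CLDN7 lower, both under 3 CPM in every library. The summed markers of fibroblasts (8 genes with a row of 8 listed) came to 22.8 to 25.6 CPM in controls and 14.8 to 17.0 CPM after depletion, those of immune cells (6 of 8) to 1.17 to 2.70 and 2.39 to 3.79 CPM, and those of endothelium (6 of 6) to 1.76 to 2.33 and 2.19 to 2.91 CPM. Alveolar type II markers (7 of 8) summed to 29.5 to 34.5 and 24.1 to 28.8 CPM, nearly all of it ABCA3, with the surfactant gene SFTPC at 0.0301 and 0.0699 CPM, near the counting floor. The leukocyte marker PTPRC was at 0.0226 and 0.0486 CPM, and the endothelial markers TIE1 and CLDN5 were at 0 in the controls. The part of the marker and mitochondrial shifts in the results below was not tested, while fits with the trend along exon length and GC content removed, or without single libraries, are given beside the results. In bulk RNA, fewer cells with a transcript and less of it per cell cannot be told apart.

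The 4 ligand genes AREG, EREG, TGFA and NRG1 rose and the receptor genes EGFR and ERBB3 fell after BCLAF1 depletion. ERBB2, HBEGF and MET did not pass the test. These 6 calls among 9 genes stand beside 35.8% of all 15907 tested genes called in either direction (17.8% higher and 18.0% lower), so calls were frequent throughout the table. For 7 of the 9 genes the groups' values were fully separate in TMM-scaled CPM, beside 51.9% of all tested genes. All 6 calls held with any 1 library left out, and all 6 held with the trend along length and GC content removed.

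**Figure D1:**
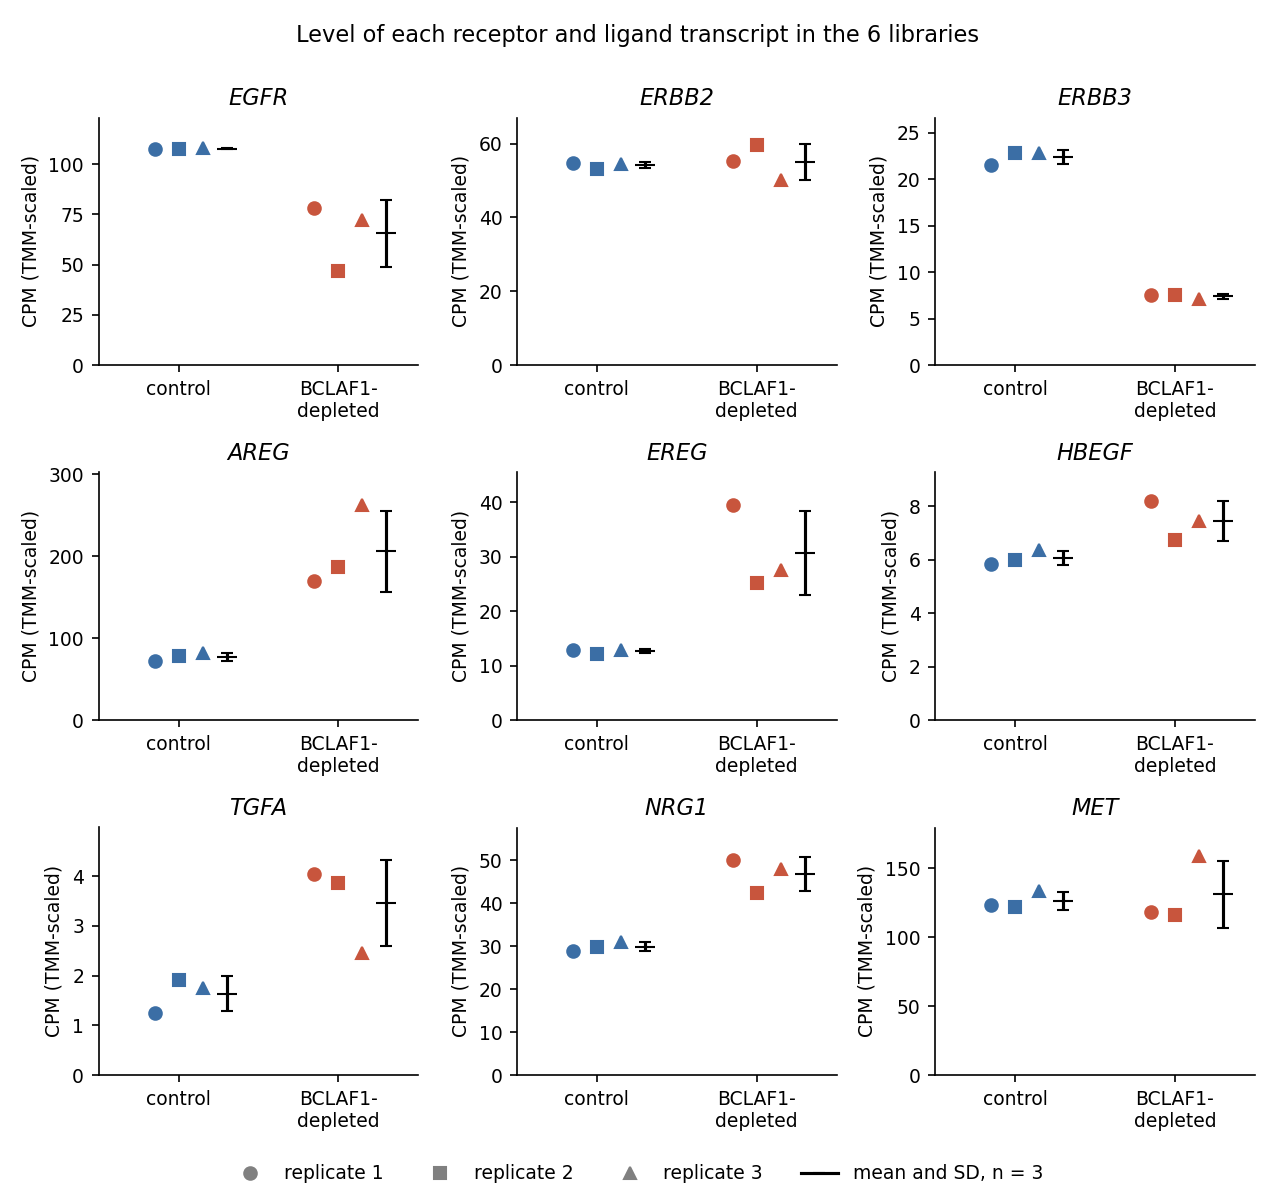
TMM-scaled CPM of each gene in the 6 libraries (vertical axes start at 0 and differ between panels). Circles, squares and triangles are replicates 1, 2 and 3, and the bars beside them give the mean and SD of 3 libraries. AREG, EREG, TGFA and NRG1 lie higher in all BCLAF1-depleted libraries and EGFR and ERBB3 lower, while ERBB2 and MET overlap between the groups.

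Among the receptors, ERBB3 changed most. The controls had 21.5, 22.8 and 22.8 CPM and the BCLAF1-depleted libraries 7.55, 7.57 and 7.12 CPM, each in the order of replicates 1 to 3, as for the genes that follow. The 3 depleted libraries lay close together, far below every control. ERBB3 fell 3.02-fold, with a log2 fold change of -1.59 ± 0.12 (edgeR adjusted p = 2.64e-05). Leaving out any 1 library gave -1.63 to -1.57, and removing the length and GC trend gave -1.47 (adjusted p = 2.49e-05). ERBB3 (ENSG00000065361.13) lies on the plus strand of chromosome 12, from 56076799 to 56103505 in GRCh38. Its exons share 31 bases with AC034102.2 on the same strand, where reads could be counted for either gene.

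EGFR, the receptor of 4 of the ligands, had 107.6, 107.6 and 107.8 CPM in the controls and 78.1, 46.7 and 72.1 CPM after depletion. The controls were almost equal, and all depleted libraries were lower, replicate 2 most. The fall was 1.64-fold, or -0.71 ± 0.18 in log2 (adjusted p = 0.0124). With 12521 exon bases, EGFR belongs to the longest length class of tested genes, whose median was -0.19. In that class 15.2% of genes had a lower fold change. With the length and GC trend removed the fall of EGFR was -0.53 (adjusted p = 0.0264). Without BCLAF1-depleted replicate 2 it was -0.52 (adjusted p = 0.0148), and in that set with the length and GC trend removed it was -0.36 (adjusted p = 0.0387), an alternative chosen after seeing the data. EGFR (ENSG00000146648.14) lies on the plus strand of chromosome 7, from 55019021 to 55211628, and shares 186 exon bases with the antisense gene EGFR-AS1. The libraries were directional per the labels, but no source used here says whether reads were counted by strand.

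ERBB2, the partner receptor without a ligand, had 54.6, 53.2 and 54.5 CPM in the controls and 55.3, 59.7 and 50.0 CPM after depletion. The depleted libraries lay on both sides of the controls. Its log2 fold change was 0.02 ± 0.11 (adjusted p = 0.885), with a 95% interval of -0.23 to 0.28. A change of the size seen for EGFR lies outside that interval, although small changes in either direction, up to its bounds, lie within it. With the length and GC trend removed ERBB2 was at 0.14 (adjusted p = 0.332). ERBB2 (ENSG00000141736.12; chromosome 17, 39687914 to 39730426, plus strand) shares 571 exon bases with MIEN1 and 194 with PGAP3, both on the opposite strand.

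MET had 123, 122 and 134 CPM in the controls and 118, 116 and 159 CPM after depletion. Only BCLAF1-depleted replicate 3, the library with the large mitochondrial share, exceeded the controls, and the groups overlapped. The log2 fold change was 0.05 ± 0.15 (adjusted p = 0.795; 95% interval -0.27 to 0.38), and it was -0.11 without that library (adjusted p = 0.441). With the length and GC trend removed it was 0.30 (adjusted p = 0.148). In the trend-removed fit lacking BCLAF1-depleted replicate 1, again an alternative added after seeing the data, MET was past the threshold at 0.41 (adjusted p = 0.0251). MET (ENSG00000105976.13) lies on the plus strand of chromosome 7, from 116672390 to 116798386.

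Among the ligands of EGFR, AREG and EREG both rose, AREG most in BCLAF1-depleted replicate 3 and EREG most in replicate 1. The 2 genes are neighbours on the plus strand of chromosome 4, in a cluster of EGF-type ligand genes that also holds EPGN and BTC. EREG (ENSG00000124882.3) spans 74365143 to 74388751 and AREG (ENSG00000109321.9) 74445134 to 74455009, and their starts are 79991 bases apart. The 250 bases before each start are shown because both genes rose. They were taken from RefSeq (GRCh38.p14), whose starts lie 2 bases after the GENCODE starts just given, and are written 5′ to 3′ on the plus strand, at chr4:74444886-74445135 for AREG and chr4:74364895-74365144 for EREG. Capitals mark matches to the cyclic AMP response element TGACGTCA and to the TATA box TATAAA.
AREG: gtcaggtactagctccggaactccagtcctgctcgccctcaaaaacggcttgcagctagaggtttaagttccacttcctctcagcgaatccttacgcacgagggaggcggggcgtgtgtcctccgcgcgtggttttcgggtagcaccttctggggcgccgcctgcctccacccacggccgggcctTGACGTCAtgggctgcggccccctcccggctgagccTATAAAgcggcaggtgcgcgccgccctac
EREG: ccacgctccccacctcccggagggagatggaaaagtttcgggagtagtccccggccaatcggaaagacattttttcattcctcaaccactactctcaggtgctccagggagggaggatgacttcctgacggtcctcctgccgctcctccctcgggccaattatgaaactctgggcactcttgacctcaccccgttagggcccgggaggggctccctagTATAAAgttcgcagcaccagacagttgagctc
Matches were searched on both strands, along with the AP-1 motif TGANTCA, and the motifs do not overlap in these windows. The AREG window holds the response element 65 bases before the start and the TATA box 29 bases before it. The EREG window holds the TATA box 32 bases before the start and neither of the other motifs. Of 35116 promoter windows of this length, 1.65% hold TGACGTCA, 10.7% TATAAA and 6.57% TGANTCA. Of the 7 genes with a window searched, AREG was the one with TGACGTCA. TATAAA also occurs in 1 of the 2 EGFR windows, while TGANTCA occurs in that EGFR window and in the ERBB2 window. A match describes the letters and says nothing on use of the site.

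AREG had 72.3, 78.3 and 81.6 CPM in the controls and 169.6, 186 and 262 CPM after depletion. Every depleted library was above every control, with replicate 3 highest. This rise was 2.66-fold, or 1.41 ± 0.17 in log2 (adjusted p = 0.000416). It was 1.20 without BCLAF1-depleted replicate 3 and 1.20 with the length and GC trend removed. With 1648 exon bases, AREG belongs to the shortest length class of tested genes, whose median was 0.35, and its fold change exceeded 94.1% of that class.

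EREG had 12.9, 12.2 and 12.8 CPM in the controls and 39.5, 25.1 and 27.6 CPM after depletion. Here BCLAF1-depleted replicate 1 was highest, the library nearest to the controls over all genes. EREG rose 2.43-fold (log2 1.28 ± 0.17, adjusted p = 0.000692), and by 1.04 in log2 without replicate 1. EREG has 5717 exon bases, and among tested genes of that length class the median was -0.12. Removing the trend raised its value to 1.46 (adjusted p = 6.96e-05).

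TGFA (ENSG00000163235.14; chromosome 2, 70447280 to 70554193, minus strand), the ligand with the lowest level, had 1.24, 1.92 and 1.75 CPM in the controls and 4.05, 3.87 and 2.47 CPM after depletion. These rest on 55 to 142 reads per library. The groups did not overlap in TMM-scaled CPM, but BCLAF1-depleted replicate 3 came close to the controls. In the FPKM deposited by the authors (fragments per kilobase, without TMM scaling) that library was at 0.35, within the control range of 0.25 to 0.38. TGFA rose 2.12-fold (log2 1.08 ± 0.25, adjusted p = 0.00916), and by 1.18 in log2 with the length and GC trend removed (adjusted p = 0.00555). HBEGF (ENSG00000113070.7; chromosome 5, 140332843 to 140346631, minus strand) had 5.84, 5.98 and 6.36 CPM in the controls and 8.21, 6.72 and 7.43 CPM after depletion. All depleted libraries were slightly higher in TMM-scaled CPM, yet HBEGF stayed short of the threshold at a log2 fold change of 0.30 ± 0.14 (adjusted p = 0.126; 95% interval -0.02 to 0.62). With the length and GC trend removed the value was 0.16 (adjusted p = 0.388). In FPKM HBEGF had 2.35, 2.41 and 2.59 in the controls and 3.11, 2.20 and 2.15 after depletion. There BCLAF1-depleted replicates 2 and 3 lay below every control.

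NRG1, the ligand of ERBB3, had 28.8, 29.9 and 31.0 CPM in the controls and 50.0, 42.4 and 48.0 CPM after depletion. The groups were well separated. NRG1 rose 1.56-fold (log2 0.65 ± 0.12, adjusted p = 0.00313), and by 0.90 in log2 with the length and GC trend removed (adjusted p = 0.000288). With library totals as the only scaling NRG1 was at 0.42 and not past the threshold (adjusted p = 0.0747), a setting that moved the median of all tested genes to -0.21. NRG1 (ENSG00000157168.17; chromosome 8, 31639386 to 32767959, plus strand) has many isoforms with separate start sites, which a count per gene cannot tell apart.

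**Figure D2:**
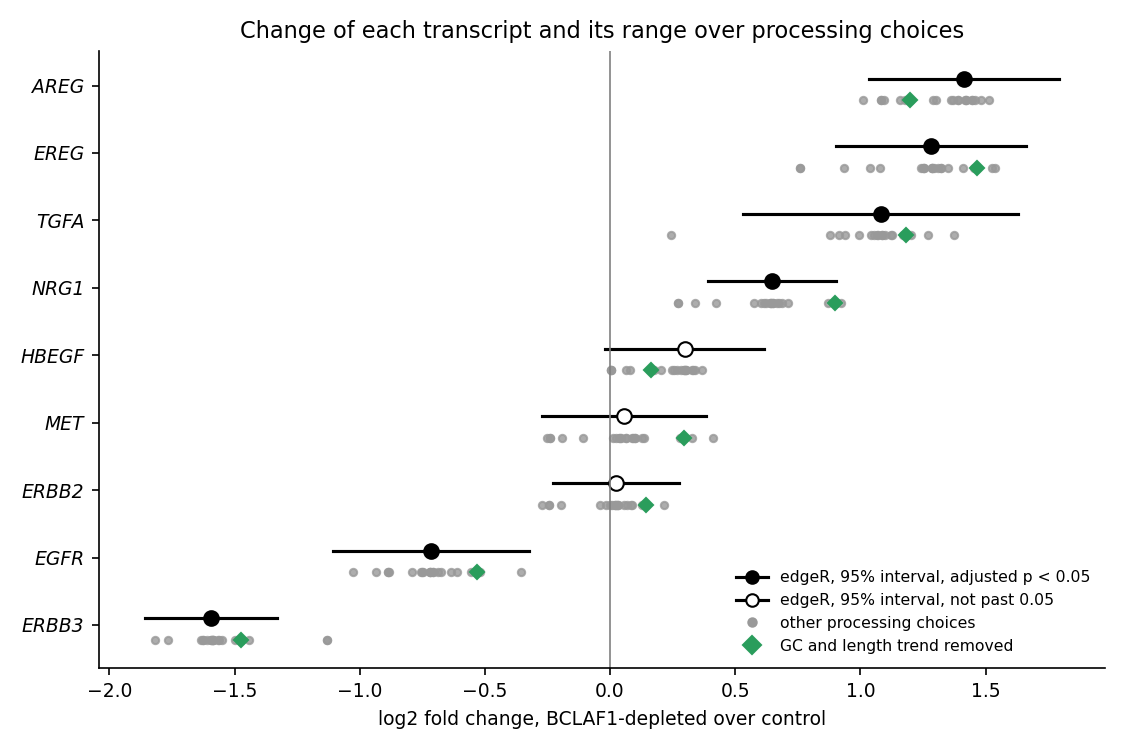
Log2 fold change of each gene, BCLAF1-depleted over control. Black circles with bars give the edgeR estimate and 95% interval, filled where the adjusted p was under 0.05. Grey points give the other processing choices and green diamonds the fit with the length and GC trend removed. AREG, EREG, TGFA and NRG1 stay to the right of 0 and EGFR and ERBB3 to the left in every choice, whereas ERBB2 and MET fall on both sides.

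Levels of different genes can be set beside each other only per length, for which the FPKM deposited by the authors were used (fragments per kilobase of transcript, scaled to library size). These values carry no TMM scaling. No source used here states the length taken for each gene, on which the order of genes and the ratios between them depend. In the controls AREG was the most abundant of the 9 transcripts at 60.2 ± 3.97 FPKM (SD, n = 3), followed by MET (18.2 ± 1.04), ERBB2 (9.23 ± 0.167), EGFR (8.83 ± 0.0608), NRG1 (3.14 ± 0.136), ERBB3 (2.91 ± 0.106), EREG (2.64 ± 0.0981), HBEGF (2.45 ± 0.125) and TGFA (0.327 ± 0.0681). The ranges of EREG and HBEGF overlapped, and no other neighbours in that order did. After depletion AREG (129 ± 15.1 FPKM) and MET (15.3 ± 1.55) still led. ERBB2 (7.72 ± 1.44), EREG (5.37 ± 2.05), EGFR (4.44 ± 1.47) and NRG1 (4.03 ± 0.759) followed, each overlapping the next. HBEGF (2.49 ± 0.540) stood apart from its neighbours, and ERBB3 (0.790 ± 0.130) overlapped TGFA (0.580 ± 0.210).

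The make-up of the receptors shifted with these changes. EGFR gave 41.9 to 42.3% of the summed FPKM of EGFR, ERBB2 and ERBB3 in the controls, and 38.1, 25.5 and 38.5% after depletion. The share of ERBB2 was 43.5 to 44.5% and then 56.1, 68.0 and 55.5%, and that of ERBB3 13.4 to 14.2% and then 5.84, 6.52 and 6.01%. The sum of the 3 receptors was 20.8 to 21.2 FPKM in the controls and 15.8, 12.1 and 11.0 FPKM after depletion. Over the same libraries the sum of the 5 ligands was 64.4, 69.2 and 72.9 FPKM and then 140.2, 128 and 156 FPKM, of which AREG made up 87.1 to 87.8% and then 88.2, 91.7 and 93.5%. The FPKM of AREG was 6.37 to 7.19 times that of EGFR in the controls and 20.6, 38.0 and 34.5 times after depletion. NRG1 stood at 1.06 to 1.10 times ERBB3 in the controls and at 5.34, 4.54 and 5.45 times after depletion. None of these ratios overlapped between the groups, and they restate the single-gene values rather than add evidence. The sums, unlike the ratios, also carry a shift of FPKM between the groups. On filtered log2(FPKM + 1) the median change of all tested genes was -0.21, beside 0.02 on TMM-scaled counts. ERBB2, for example, had a lower mean FPKM after depletion (9.23 and then 7.72) but not a lower mean CPM (54.1 and then 55.0).

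**Figure D3:**
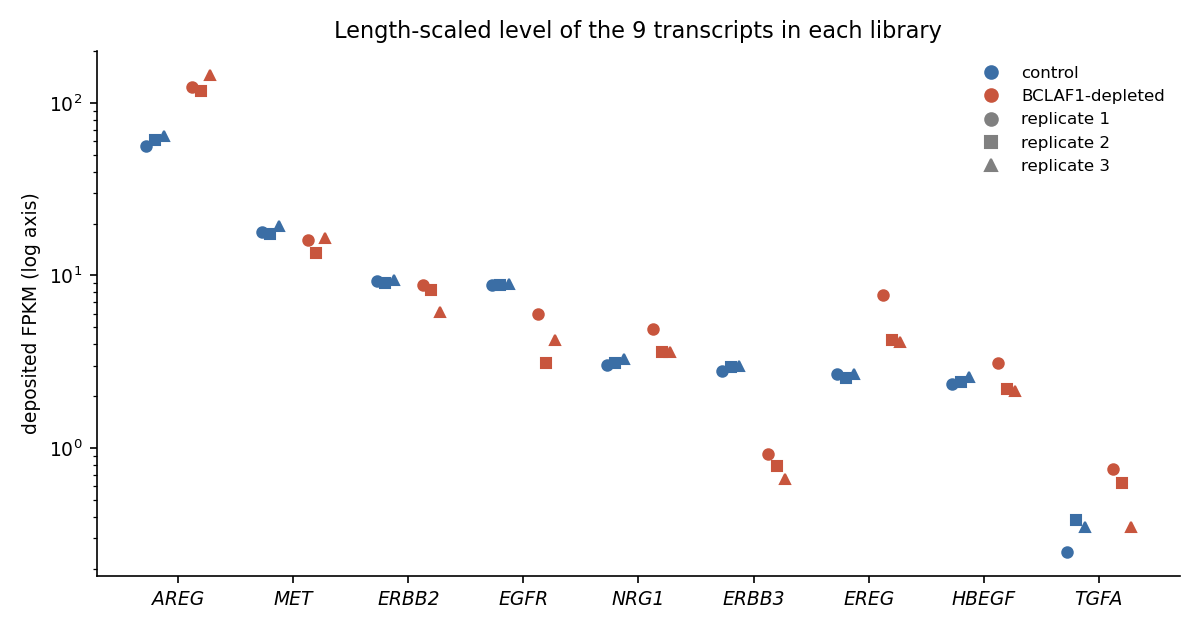
Deposited FPKM of the 9 genes in each library, on a log axis, ordered by their control mean. Blue marks are control and red marks BCLAF1-depleted libraries, with shapes for the replicate. AREG leads in all 6 libraries, and ERBB3 drops from about the level of NRG1 to near that of TGFA.

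The genes whose profiles over the 6 libraries were most like those of the changed genes were found by the root mean square difference of log2 CPM, each gene centred on its own mean, among the 10172 or 10173 other genes averaging 5 CPM or more over the libraries. For ERBB3 these were the carboxypeptidase M gene CPM (0.080, beside a median of 0.80 over the genes compared) and IL1R1 (0.099), for EGFR CENPK and CAAP1 (both 0.036, beside 0.46). STXBP6 (0.069) and CLU (0.079) were nearest to AREG (median 0.75), NAMPT (0.087) and CLDN1 (0.13) to EREG (0.68), CAV2 and GLRX2 (both 0.18) to TGFA (0.63), and CMBL (0.062) and SRD5A1 (0.064) to NRG1 (0.38). Over 6 libraries in 2 groups, genes with a similar fold change come out as alike.

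Of 10 listed other ligands and receptors of the same families 9 had a row and 7 were tested, with 1 higher and 0 lower. Over all tested genes 17.8% were higher and 18.0% lower. The median log2 fold change of the list was 0.33, beside 0.02 for all tested genes. The 1 call was BTC, the betacellulin gene of the chromosome 4 cluster, at 1.18, 1.26 and 1.66 CPM in the controls and 3.62, 1.61 and 2.19 CPM after depletion (0.85 ± 0.30, adjusted p = 0.0494). Its groups overlapped, and the call was lost in 12 of 21 alternatives, among them without any 1 control library or without BCLAF1-depleted replicate 1 or 3 (adjusted p 0.0684 to 0.167). EPGN, the remaining gene of the cluster, had no reads in 5 libraries and lay under the counting floor in the other. NRG4, a further neuregulin gene, was at 2.59 ± 0.385 FPKM in the controls and 2.67 ± 0.541 FPKM after depletion (log2 0.33 ± 0.19, adjusted p = 0.197), a level like that of EREG and HBEGF in the controls. MST1R, which encodes the MET relative RON, was at 5.95 ± 0.566 and 6.51 ± 0.556 CPM (log2 0.13 ± 0.15, adjusted p = 0.525). Both were named after their values were seen. HGF, which encodes the ligand of MET, was at 0.155 CPM in the controls and 0.120 CPM after depletion and was not tested, and ERBB4 was at 0.352 and 0.393 CPM.

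Genes acting around these receptors were examined in 8 further lists. Over these and the list just described, 158 distinct genes were tested, of which 12 rose and 57 fell (7.59 and 36.1%, beside 17.8 and 18.0% of all tested genes). Calls ran with exon length: 10.3% of the 3155 longest tested genes were higher and 30.1% lower, against 28.6 and 5.29% of the 3155 shortest. With the length and GC trend removed 18 list genes rose and 49 fell, beside 2851 higher and 2527 lower of 15775 genes. In that fit 34.1% of all tested genes were called, 53.0% of them higher. The list counts moved with the library left out, as did the share of all tested genes called. Without control replicates 1, 2 and 3 in turn the lower genes numbered 31, 34 and 33 and the higher genes 5 each time, where 18.1, 18.1 and 19.7% of all tested genes were called. Without BCLAF1-depleted replicate 1 there were 79 lower and 13 higher genes, and 48.8% of all tested genes were called. Without BCLAF1-depleted replicates 2 and 3 the share over all tested genes was 25.0 and 30.8%. The list counts below that leave out a library or remove the trend are to be read against these shares. Where a count is 5 or less, its genes are named below, except for 1 of the PI3K and AKT list, and those outside the naming rule (ADAM15, RHBDF1, FURIN, PTPN2, PTPRK, PTPRF, CLTA, RAB5C, GAB2, MAP2K2, PDPK1, AKT1, SPINT2 and DDR1) were named after their values were seen.

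**Figure D4:**
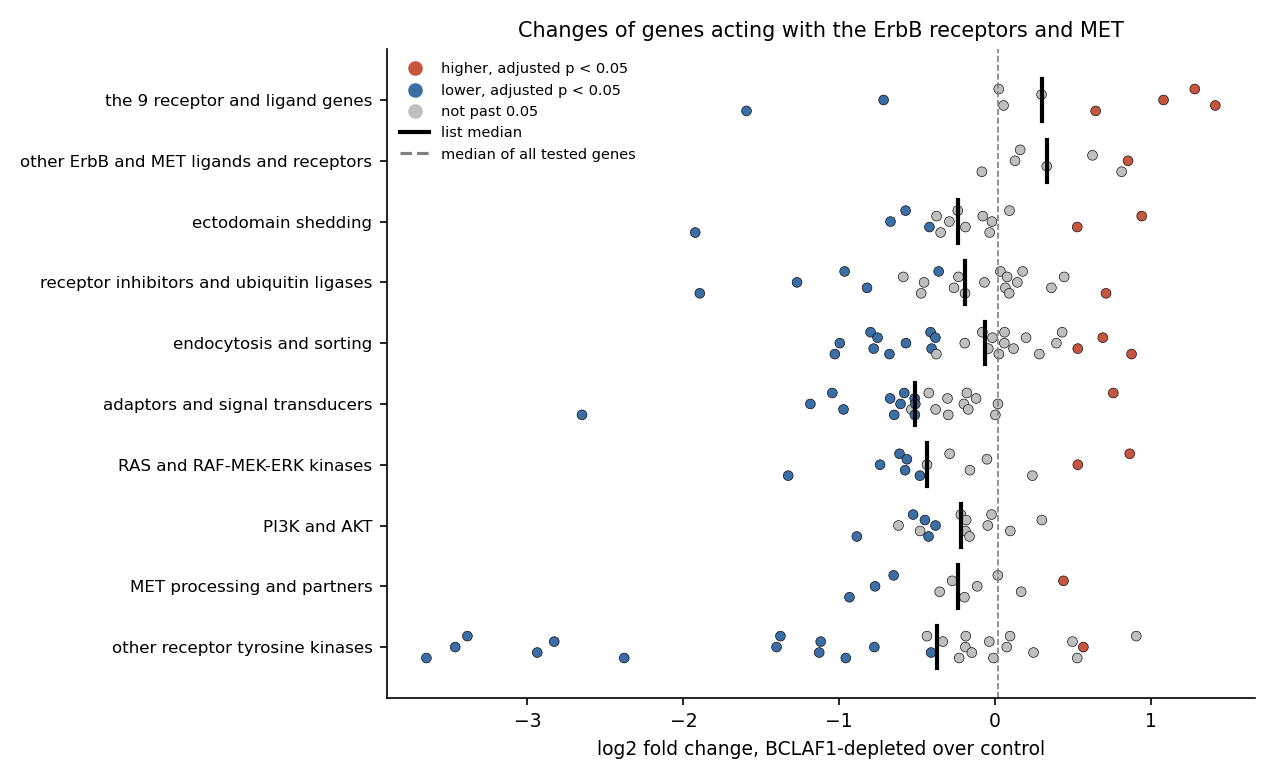
Log2 fold change, BCLAF1-depleted over control, of every tested gene of the 9 described genes and of each list of genes acting with them. Red points were higher and blue points lower at an adjusted p under 0.05, black bars are list medians, and the dashed line is the median of all tested genes. Medians lie to the left of that line for all 8 lists from shedding to other receptor kinases.

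Ectodomain shedding releases the ligands from the membrane. Of 15 tested genes 2 rose and 4 fell (median -0.24). TSPAN15, a tetraspanin partner of ADAM10, rose from 18.1 ± 1.60 to 34.7 ± 4.80 CPM (0.94 ± 0.14, adjusted p = 0.00109), and ADAM15 had 0.53 ± 0.11. The protease gene ADAM19 fell from 3.44 ± 0.357 to 0.903 ± 0.164 CPM (-1.92 ± 0.22, adjusted p = 0.000272), followed by the proprotein convertase gene PCSK5 (-0.67), the iRhom gene RHBDF1 (-0.57) and FURIN (-0.42). ADAM17, the main sheddase of these ligands and named after its value was seen, was at -0.38 ± 0.18 (adjusted p = 0.123). Lower genes numbered 1, 2 and 1 without control replicates 1, 2 and 3 and 8 without BCLAF1-depleted replicate 1, where 48.8% of all tested genes were called. PCSK5 was not past the threshold without any 1 control library (adjusted p 0.0613 to 0.0743). Nor was FURIN without any library but BCLAF1-depleted replicate 1 (0.0756 to 0.123), RHBDF1 without control replicate 1 or 3 (0.0512 and 0.0617), or ADAM15 without control replicate 2 (0.0503). FURIN also lost its call with the length and GC trend removed (-0.41, adjusted p = 0.0606).

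Inhibitors of the receptors and the ubiquitin ligases that mark them for breakdown had 1 higher and 5 lower genes of 21 tested (median -0.19). LRIG1, a membrane protein that promotes the breakdown of ErbB receptors, fell from 22.1 ± 0.234 to 5.93 ± 1.85 CPM (-1.89 ± 0.19, adjusted p = 0.000163). SOCS5 (-1.27 ± 0.16, adjusted p = 0.000547) and SOCS4 (-0.96 ± 0.19, adjusted p = 0.00462), suppressors of cytokine signalling with roles at EGFR, fell as well, as did the receptor phosphatase genes PTPRK (-0.82) and PTPRF (-0.36). The phosphatase gene PTPN2 rose (0.71 ± 0.18, adjusted p = 0.0148). With the length and GC trend removed 5 genes rose and 5 fell, with PTPRF no longer among the latter (-0.23, adjusted p = 0.168). Lower genes numbered 3 without each control in turn or without BCLAF1-depleted replicate 2 or 3, and 9 without BCLAF1-depleted replicate 1. LRIG1, SOCS5 and SOCS4 kept their calls in all 22 alternatives. PTPRK (adjusted p 0.0574 to 0.0955) and PTPRF (0.0657 to 0.156) lost theirs without any library but BCLAF1-depleted replicate 1, and PTPN2 without control replicate 1 or 3 (0.0529 to 0.0651). With control replicate 1 or 3 left out, no gene of the list was called higher.

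Endocytosis and sorting remove active receptors from the surface. Of 26 tested genes 3 rose and 10 fell (median -0.06). The endocytic adaptor gene EPN2 fell from 33.2 ± 2.31 to 16.3 ± 3.24 CPM (-1.03 ± 0.15, adjusted p = 0.00131) and the dynamin gene DNM1 from 168 ± 4.56 to 84.4 ± 4.19 CPM (-0.996 ± 0.116 in log2, adjusted p = 0.000341). The clathrin light chain genes CLTB (0.88 ± 0.19, adjusted p = 0.00796) and CLTA (0.53 ± 0.15) and the GTPase gene RAB5C (0.69 ± 0.20) rose. Lower genes numbered 5, 4 and 5 without control replicates 1, 2 and 3 and 6 without BCLAF1-depleted replicate 2, and higher genes 1, 1, 2 and 1. CLTA was not past the threshold without any 1 control or BCLAF1-depleted replicate 2 (adjusted p 0.0520 to 0.106), nor RAB5C when control replicate 1 or 2, or replicate 2 or 3 of the depleted libraries, was left out (0.0752 to 0.0970). With the trend removed CLTA was at 0.33 (adjusted p = 0.0826) and RAB5C at 0.49 (0.0539).

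Adaptors and signal transducers dock on the phosphorylated receptors. Of 23 tested genes 1 rose and 11 fell (median -0.51), and the count was again 1 and 11 with the trend removed. VAV2, a guanine nucleotide exchange factor, fell from 92.7 ± 2.35 to 40.8 ± 5.80 CPM (-1.18 ± 0.13, adjusted p = 0.000266). GAB1, a docking protein used by both EGFR and MET, fell from 2.46 ± 0.230 to 1.19 ± 0.106 CPM (-1.04 ± 0.20, adjusted p = 0.00448), and RASA1, a GTPase-activating protein for RAS, was at -0.97 ± 0.20 (adjusted p = 0.00517). The docking protein gene GAB2 rose (0.76 ± 0.15, adjusted p = 0.00437). Lower genes numbered 5, 8 and 6 without control replicates 1, 2 and 3. VAV2, GAB1 and RASA1 kept their calls in every alternative that gave them a value.

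Of 13 tested RAS, RAF, MEK and ERK genes 2 rose and 6 fell (median -0.44). KSR1, a scaffold of this kinase cascade, fell from 42.5 ± 1.99 to 16.9 ± 0.446 CPM (-1.33 ± 0.11, adjusted p = 5.17e-05). MAP2K1 fell (-0.74 ± 0.23, adjusted p = 0.0329) while its close relative MAP2K2 rose (0.53 ± 0.14, adjusted p = 0.017), and HRAS rose from 93.7 ± 5.17 to 170 ± 53.7 CPM (0.86 ± 0.21, adjusted p = 0.0124). With the trend removed HRAS was at 0.55 (adjusted p = 0.0279) and 4 genes fell. Lower genes numbered 2 without each control in turn and 3 without BCLAF1-depleted replicate 2, and higher genes 1, 1, 0 and 1. MAP2K1 (adjusted p 0.0747 to 0.0918) and MAP2K2 (0.0664 to 0.0836) were not past the threshold without any 1 control, nor was HRAS when BCLAF1-depleted replicate 2 (0.0560) or control replicate 3 (0.0583) was left out.

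PI3K and AKT genes had 0 higher and 5 lower genes of 15 tested (median -0.22). PHLPP1, a phosphatase that acts on AKT, fell from 14.4 ± 0.843 to 7.81 ± 1.95 CPM (-0.89 ± 0.18, adjusted p = 0.00571) and kept its call in all 22 alternatives. The PI3K regulatory subunit gene PIK3R2 (-0.45), PDPK1 (-0.43) and AKT1 (-0.38) also fell. Each of these 3 was not past the threshold without any 1 control (adjusted p 0.0684 to 0.161 over them, including PIK3R2 and AKT1 without BCLAF1-depleted replicate 2 and AKT1 without replicate 3). Without each control in turn the list had 1 lower gene. The count was 8 without BCLAF1-depleted replicate 1 and 3 without replicate 2. With the trend removed 2 genes fell, while PDPK1 was at -0.29 (adjusted p = 0.0692) and AKT1 at -0.25 (adjusted p = 0.172).

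Genes that process MET's ligand or pair with MET had 1 higher and 3 lower genes of 10 tested (median -0.24). The semaphorin receptor gene PLXNB1, whose product can associate with MET, fell from 43.5 ± 0.339 to 22.8 ± 0.937 CPM (-0.93 ± 0.11, adjusted p = 0.000326). The endocytic receptor gene LRP1 (-0.77 ± 0.13, adjusted p = 0.00237) and the integrin gene ITGA6 (-0.65 ± 0.17, adjusted p = 0.0162) fell too. SPINT2, an inhibitor of the proteases that activate hepatocyte growth factor, rose from 182 ± 14.0 to 247 ± 27.3 CPM (0.44 ± 0.14, adjusted p = 0.0307). SPINT2 lost its call without any 1 control or BCLAF1-depleted replicate 2 (adjusted p 0.0723 to 0.164), and ITGA6 without control replicate 1 or 2 or BCLAF1-depleted replicate 2 (0.0545 to 0.0634). Lower genes numbered 5 without BCLAF1-depleted replicate 1.

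Among 28 tested genes of other receptor tyrosine kinases 1 rose and 13 fell (median -0.37). Those that fell most were NTRK3, the neurotrophin-3 receptor, from 33.3 ± 1.86 to 2.64 ± 0.460 CPM (-3.65 ± 0.16, adjusted p = 1.71e-06), KIT, the stem cell factor receptor, from 2.09 ± 0.456 to 0.184 ± 0.138 CPM (-3.46 ± 0.41, adjusted p = 0.000371), and FGFR2, a fibroblast growth factor receptor, from 2.71 ± 0.201 to 0.257 ± 0.129 CPM (-3.39 ± 0.32, adjusted p = 0.000104). The collagen receptor gene DDR1 rose (0.57 ± 0.15, adjusted p = 0.0177). Without each control in turn 12 genes fell and 0 rose, with DDR1 at adjusted p 0.0574 to 0.0856, and without BCLAF1-depleted replicate 1, where 48.8% of all tested genes were called, the counts were 16 lower and 3 higher. With the length and GC trend removed 12 genes fell and 3 rose.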

How the data were processed

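Polyadenylated RNA of A549 cells was sequenced in 3 control and 3 BCLAF1-depleted libraries; groups and replicate numbers follow the sample titles, whose "si" the treatment protocol gives as lentiviral short hairpin RNA. The deposited table gives whole-number read counts per gene, not normalized. The authors also deposited FPKM for 28878 genes, used for levels between genes and in alternatives. The tools named per the submitters' processing notes are TopHat2, edgeR and bcl2fastq, with the build GRCh38. What each was used for, the read counter, the annotation and any use of strand are not stated in the labels.

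The test on the 6 libraries' counts was that of edgeR 4.0.16 under R 4.3.3 (glmQLFit, glmQLFTest, group as the only term, TMM). filterByExpr with a minimum count of 10 and total of 15 kept 15907 genes, with Benjamini-Hochberg adjustment over all of them and calls at an adjusted p under 0.05. The SE is the log2 fold change divided by the root of F. Library totals and the counting floor they set stand in the report. GENCODE release 29 supplied positions, exon lengths and GC content (28362 identifiers matched, 99.2% of tested genes), and the trend fit used mgcv 1.9.3, per library, as an offset. The fits were tested on simulated data. There the main fit recovered 19.4% of 67 genes changed 1.5-fold, 80% of 65 changed 2-fold and 93.75% of 64 changed 4-fold. It called 0.058% of the 15438 unchanged genes. Few genes were changed there, whereas 35.8% of all tested genes were called in the 6 libraries. Whether these rates hold for the 6 libraries was not tested.

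The described genes and the lists were chosen with earlier results of these data known. The naming rule took BCLAF1, the 9 genes and, per list, up to 3 called genes of at least 1 CPM with the largest change. For 1 called gene of the PI3K and AKT list, which the rule names, values are not reported here. No gene list was tested as a set. Replicate numbers were not taken as pairs: same-numbered libraries' deviations correlated at 0.036 to 0.12. Alternatives were DESeq2 size factors, upper-quartile or no scaling beyond totals, no filter or 5 CPM in 3 libraries, each library left out, a replicate block, the trend removed, the DESeq2 1.42.0 Wald test, limma-voom (limma 3.58.1) and limma on log2(FPKM + 1) or log2(FPKM + 0.1), filtered at 0.5 FPKM in 3 libraries or, for the former, also unfiltered. Removing the trend with 1 BCLAF1-depleted library left out was chosen after seeing the data.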

Additional observations from a re-analysis of the deposited data

How the results depend on the processing

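AREG, ERBB3 and EGFR kept their direction and call in all 22 alternatives, with ranges of 1.01 to 1.51, -1.82 to -1.13 and -1.03 to -0.36. EREG lost its call with log2(FPKM + 1) unfiltered (0.76, adjusted p = 0.0771), and so did TGFA (0.24, 0.220; 19 alternatives) and NRG1 (0.27, 0.222). NRG1 was also lost with log2(FPKM + 1) filtered (0.27, 0.144), log2(FPKM + 0.1) (0.34, 0.143) and library totals alone (0.42, 0.0747). HBEGF was never past the threshold (0.00 to 0.37). ERBB2 and MET, uncalled, changed sign with library totals alone (both -0.19) and on FPKM: ERBB2 at -0.24 with log2(FPKM + 1), filtered or not, and -0.27 with log2(FPKM + 0.1), MET at -0.24 and -0.25. ERBB2 was also at -0.018 with no low-count filter. With 1 library left out ERBB2 ranged from -0.039 (without BCLAF1-depleted replicate 2) to 0.086 and MET from -0.11 (without replicate 3) to 0.14. MET passed the threshold in 1 alternative, the trend fit lacking BCLAF1-depleted replicate 1 (0.41). Higher calls among the 9 genes numbered 2 of 8 tested with filtered FPKM, for either pseudocount, and 1 of 9 unfiltered. TGFA did not pass the FPKM filter and was not tested there. Over all genes 952 (log2(FPKM + 1)) and 909 (log2(FPKM + 0.1)) of 13075 were called higher filtered, and 573 of 28878 unfiltered.

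Over all genes, calls numbered 2827 higher and 2870 lower. Leaving out 1 library gave 1383 to 3741 higher and 1549 to 4195 lower, and library totals alone 1283 higher. With that scaling 25.9% of calls were higher, against 49.6%, and on FPKM 19.0% filtered and 21.8% unfiltered. Higher calls numbered 952 with log2(FPKM + 1) filtered, 909 with log2(FPKM + 0.1) and 573 unfiltered. The trend fit without BCLAF1-depleted replicate 2 gave 1782 lower. Over the 9 lists, higher calls numbered 12, and 5 with library totals alone, 4, 3 and 0 in the same 3 FPKM settings, 22 with the trend removed without BCLAF1-depleted replicate 1, and 5 to 13 with 1 library left out. Lower calls numbered 57, 31 to 79 with 1 library left out, and 31 with the trend removed without BCLAF1-depleted replicate 2. At an unadjusted p under 0.05 (limma), 6 list genes were higher on unfiltered log2(FPKM + 1).

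With the replicate number as a block, the 6 calls were kept (AREG 1.39, EREG 1.25, TGFA 1.07, NRG1 0.64, EGFR -0.75, ERBB3 -1.59), and with the trend removed as well (1.18, 1.45, 1.17, 0.90, -0.55, -1.47). All 6 libraries correlated best with their own number, which is a hint from the data and not from the design. TGFA, with 55 to 142 reads per library, had the fewest reads of the 9 genes.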
